A study of Mus musculus with 4 samples.

Results

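The 10 genes described here are Foxp3, Ikzf2, Ikzf4, Ccr8, Tnfrsf4, Tnfrsf18, Tnfrsf9, Icos, Nrp1 and Il10, a set chosen by symbol because each is used to describe regulatory T cells (Tregs). All 10 were found among the 55367 gene rows of the count tables. RNA was measured in bulk in 4 mouse libraries of B16-F10 tumors, a melanoma line grown under the skin, from which CD45.2+CD8+ cells, meaning leukocytes with the CD8 co-receptor on their surface, had been sorted after dissociation. Titles put 2 libraries in a WT group and 2 in a KO group, in a series on Satb1 in tumor-infiltrating lymphocytes that used WT mice and Satb1 F/F mice carrying ThPOK-cre, active in the CD4 lineage, or E8I-cre, active in the CD8 lineage. The labels of these libraries did not say which Cre the KO title stands for, nor give age, sex, or whether 1 animal or a pool made a library. The study's methods describe young adult mice of mixed sexes. P-values therefore measure the spread between the 2 libraries of a group, which may be technical.

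Tregs are CD4+ T cells that restrain other immune cells, and the transcription factor FoxP3 defines them. FoxP3 works with partners that include the Ikaros family proteins Helios (Ikzf2) and Eos (Ikzf4). Activated Tregs in tumors carry the chemokine receptor CCR8, the costimulatory receptors OX40 (Tnfrsf4), GITR (Tnfrsf18), 4-1BB (Tnfrsf9) and ICOS, and the co-receptor neuropilin-1 (Nrp1), and some release the suppressive cytokine interleukin-10 (Il10). These genes are not restricted to Tregs, and conventional T cells can express Foxp3 too. Activated CD8+ T cells also carry OX40, GITR, 4-1BB and ICOS, while macrophages, dendritic cells and endothelium can express Nrp1, and macrophages Il10.

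The labels and the sort were checked before the genes were compared. Reads on genes numbered 4017875 to 5382915 per library. Satb1, the gene named as the knockout target, had 7 and 5 counts in the WT-labeled libraries and 131 and 55 in the KO-labeled ones, opposite to the label (log2 fold change 3.36, SE 0.79, edgeR adjusted p = 0.115), so each direction below follows the labels only. Per 100 reads on the 14 T cell genes listed next, Satb1 overlapped between the groups, at 2.06 and 0.859 under the WT label and 1.07 and 0.682 under the KO label. A list of 14 T cell genes, among them Cd3e, Trac and Cd8a, took 0.00846% and 0.0137% of gene counts under the WT label and 0.272% and 0.150% under the KO label, while 10 macrophage and monocyte genes took 2.09% to 3.58% in every library. Lyz2, with a log2 fold change of 0.01, held 29370 of 103141 and 57521 of 152469 reads on that list under the WT label. Under the KO label it held 67802 of 93507 and 58896 of 134444. Of the 10 genes 8 had values below 0 (median -1.13), among them C1qa, C1qb and C1qc, which like Foxp3 were lower in both KO-labeled libraries. None of the 10 passed, and their part in the Foxp3 values was not tested. The sort was labeled CD8+, but Cd8a reached only 6.93 to 7.21 normalized CPM, reads scaled by library size, in the WT-labeled libraries, and 128 and 160 in the KO-labeled ones. Cd4, which Tregs express, had 6 and 30 counts under the WT label and 3 and 35 under the KO label. The groups also differed in sex-chromosome transcripts, with 435 and 216 counts of Xist under the WT label against 0 and 3 under the KO label, and 4 Y-linked genes at 0 in both WT-labeled libraries and above 0 in both KO-labeled ones, so that sex and group cannot be told apart. In bulk RNA, fewer cells of a type and less RNA per cell cannot be told apart either.

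Across the 10 genes, the receptors Tnfrsf4, Tnfrsf18, Tnfrsf9, Icos and Ccr8 and the factors Ikzf2 and Ikzf4 had a higher normalized CPM in both KO-labeled libraries than in either WT-labeled one, Foxp3 had a lower one, and Nrp1 and Il10 overlapped between the groups. The KO label was compared with the WT label by the edgeR quasi-likelihood test over 11837 genes, with p-values adjusted over all of them and a threshold of 0.05. Tnfrsf4 alone of the 9 genes that could be tested passed, against 0.549% of all genes called higher and 0.0253% called lower. Ikzf4 had too few reads to be tested. Among the 9, 6 had both KO-labeled libraries above both WT-labeled ones, as did 25.3% of all genes tested, and 1 had both below, as did 22.6%. The median log2 fold change of the 9 was 2.64, or 2.34 with Ccr8 set to its lower bound, and that of all genes tested was 0.05. Ccr8, Ikzf2 and Icos passed the filter on low counts only through the KO-labeled libraries, so these counts and medians do not support a shared direction.

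**Figure D1:**
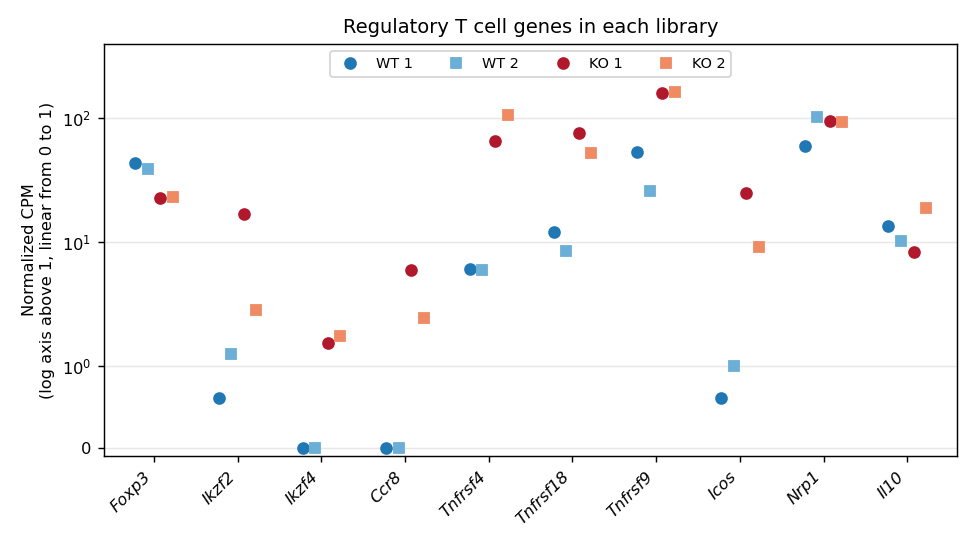
Normalized CPM of the 10 genes (y axis, logarithmic above 1 and linear from 0 to 1) in each of the 4 libraries, 1 point per library. Foxp3 sits at 38.6 and 43.9 in the WT-labeled libraries and at 22.8 and 23.0 in the KO-labeled ones, while Tnfrsf4, Tnfrsf18, Tnfrsf9 and Icos lie higher in both KO-labeled libraries.

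Foxp3 was detected in all 4 libraries at similar read counts. It lies on the X chromosome at chrX:7573644-7595245 of GRCm38/mm10, on the plus strand, and received 146 and 156 reads in the WT-labeled libraries, against 120 and 132 in the KO-labeled ones. Scaled by effective library size (TMM method), its level was 41.3 ± 3.71 (SD, n = 2) under the WT label and 22.9 ± 0.144 (SD, n = 2) under the KO label. The KO-labeled libraries were both lower and the groups did not overlap, but the log2 fold change of -0.85 (SE 0.44) did not pass the threshold (edgeR adjusted p = 0.431). It stayed between -0.98 and -0.50 in 15 fits, the main one and its alternatives, and passed in 0 of them. Every such tally includes a fit that pairs WT 1 with KO 2 and WT 2 with KO 1, added after the data were seen. Since Xist and the Y-linked genes split the libraries the same way, the part of sex in the values of this X-linked gene cannot be told apart from that of the label.

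Genes that share exons with Foxp3 had few reads. Ccdc22, on the opposite strand, covers 12.9% of the Foxp3 exon bases and had 6 and 12 counts under the WT label, then 5 and 3 under the KO label. Ppp1r3f and Gm36995, on the opposite strand over 5.81% and 8.15% of them, had at most 4 and 1 counts in a library, and Flicr, on the same strand over 18.6%, had 0 in every library. Reads that fall in shared exons can be lost or assigned to the partner, and the strand setting of the counting was not stated. The next gene on the X chromosome, Cacna1f, lies 11838 bases away on the same strand and had 42 and 48 counts against 22 and 34.

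Reads on Foxp3 stayed within a narrow range while those on T cell genes did not. The 14 T cell genes together received 340 and 582 reads in WT 1 and WT 2 and 12191 and 8063 in KO 1 and KO 2. Of these 14 genes 11 passed the test, all higher under the KO label, and none was at 0 in all libraries. Without WT 1 the number was 5, of which 4 were among the 11, and without each of the other libraries it was 12 to 14. For every 100 reads on the list there were 42.9 and 26.8 reads on Foxp3 in the WT-labeled libraries, against 0.984 and 1.64 in the KO-labeled ones. The same ratio was lower in both KO-labeled libraries for 95.2% of all genes tested, so nothing particular to Foxp3 is read from it.

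**Figure D2:**
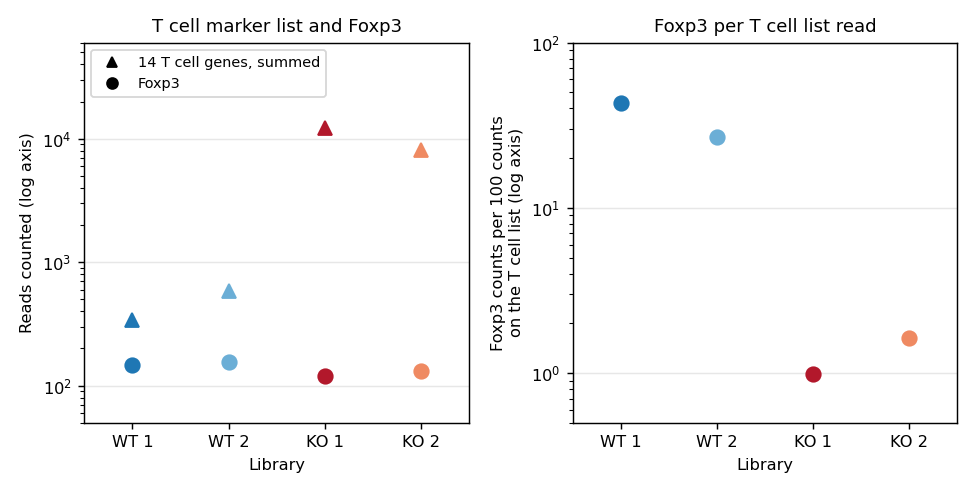
Left, reads on Foxp3 (circles) and summed over 14 T cell genes (triangles) in each library, on a logarithmic axis. Right, Foxp3 reads per 100 reads on the T cell list, also logarithmic; Foxp3 stays between 120 and 156 reads while the list runs from 340 to 12191.

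The start window of Foxp3 is shown because Foxp3 was the one gene of the 10 with a fitted value below 0, set beside the receptor windows printed further on. RefSeq sequence of GRCm38.p6 from 250 bases before to 50 after a start site was found for 6 of the 10 genes, and was searched on both strands for the letters GTAAACA (forkhead), TGANTCA (AP-1), GGGANTTTC (NF-kappaB) and TGGGAA (Ikaros family), which do not overlap in the windows printed. Of 32851 such windows, 3.65%, 7.81%, 1.11% and 25.6% held a match in that order. The window of the first Foxp3 start, at chrX:7579426-7579725 on the plus strand, held 1 Ikaros match on the reverse strand, in capitals, beginning 3 bases downstream of the start.
Foxp3: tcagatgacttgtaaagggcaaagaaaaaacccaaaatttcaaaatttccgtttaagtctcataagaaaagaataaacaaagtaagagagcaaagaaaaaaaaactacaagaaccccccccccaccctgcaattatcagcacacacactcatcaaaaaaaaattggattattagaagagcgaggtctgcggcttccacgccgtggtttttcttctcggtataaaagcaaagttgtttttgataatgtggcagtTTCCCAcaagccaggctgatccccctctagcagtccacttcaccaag
A second Foxp3 start, at chrX:7580233-7580532, held no match to any of these letters. A match describes the sequence and is not evidence of binding.

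Ikzf2 and Ikzf4, which encode Helios and Eos, were scarce. Ikzf2 (chromosome 1, minus strand) had 2 and 5 reads under the WT label and 89 and 16 under the KO label. KO 1 stood well above KO 2, at 16.9 against 2.79 normalized CPM, and both were above the WT-labeled libraries at 0.601 and 1.24. The log2 fold change of 3.36 (SE 1.08) did not pass (edgeR adjusted p = 0.230), and without KO 1 it was 1.55. It passed in 3 of 15 fits. Ikzf4 (chromosome 10, minus strand) had 0 reads in both WT-labeled libraries and 8 and 10 in the KO-labeled ones, which is at least 1.99-fold higher against a floor of 3 reads in each WT-labeled library.

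Ccr8, whose product is the receptor for the chemokines CCL1 and CCL8, lies on chromosome 9. It had 0 reads in WT 1 and WT 2, 31 in KO 1 and 14 in KO 2. This was at least 5.07-fold higher under the KO label, against the same floor, and did not pass (edgeR adjusted p = 0.144). For 3 of the 4 libraries, leaving that library out kept the gene in the test, and it did not pass in any of the 3. Over 14 fits it passed in 4, which were DESeq2, the likelihood ratio test, the fit of every gene with a count and a fit that pairs WT 1 with KO 2 and WT 2 with KO 1, added after the data were seen.

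Of the 3 receptors of the tumor necrosis factor family, Tnfrsf4 rose, and Tnfrsf18 and Tnfrsf9 were higher in both KO-labeled libraries without passing the test. Tnfrsf4 and Tnfrsf18, the genes of OX40 and GITR, are neighbors on the plus strand of chromosome 4, at chr4:156013843-156016612 and chr4:156026164-156028895, and Tnfrsf9, the gene of 4-1BB, lies on the same chromosome at chr4:150914562-150946102. Signals through these receptors sustain T cells after activation.

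Tnfrsf4 had 20 and 24 reads in the WT-labeled libraries, and 345 and 611 in KO 1 and KO 2. Its normalized CPM was 5.98 ± 0.0477 (SD, n = 2) under the WT label and 86.1 ± 29.0 (SD, n = 2) under the KO label. It rose by a log2 fold change of 3.84 (SE 0.52, edgeR adjusted p = 0.0242), and passed in all 15 fits, with adjusted p-values from 1.13e-08 to 0.0330 and log2 fold changes from 3.41 to 4.16.

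Tnfrsf18 had 40 and 34 reads against 397 and 299, or 10.2 ± 2.55 and 63.9 ± 16.5 normalized CPM (SD, n = 2 each). The groups were far apart, but the log2 fold change of 2.64 (SE 0.49) was just short of the threshold (edgeR adjusted p = 0.0539), passing in 9 of 15 fits. Its antisense partner Gm16008, which covers 27.2% of its exon bases, had 14 and 22 counts against 217 and 177, and without a stated strand setting the reads of the pair cannot be told apart.

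Tnfrsf9 had 178 and 104 reads under the WT label, and 845 and 942 under the KO label. The KO-labeled libraries lay close together at 161 and 164 normalized CPM, and the WT-labeled ones at 53.5 and 25.8. The log2 fold change was 2.04 (SE 0.49) and did not pass (edgeR adjusted p = 0.124). It passed in 6 of 15 fits, among them the crossed pairing of libraries that was added after the data were seen. No gene shares exon bases with Tnfrsf4 or Tnfrsf9 in the annotation. Sdf4, 233 bases from Tnfrsf4 on the same strand, had 840 and 753 reads against 1145 and 1488, and Park7, 125 bases from Tnfrsf9 on the other strand, 878 and 1019 against 1063 and 1210.

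The start windows of these receptor genes, 2 of them neighbors, are shown for comparison, with matches in capitals. Those of Tnfrsf4 (chr4:156013445-156013744) and Tnfrsf18 (chr4:156026072-156026371) held none of the letters searched. Tnfrsf9 has a start at chr4:150919905-150920204 with no match, and another at chr4:150927749-150928048 with 1 Ikaros match beginning 37 bases upstream of the start and 1 AP-1 match beginning 15 bases upstream. All these windows are on the plus strand, while the Ikaros match is on the reverse strand. Other spellings of the motifs were not searched, so a window without a match may still hold them.
Tnfrsf4: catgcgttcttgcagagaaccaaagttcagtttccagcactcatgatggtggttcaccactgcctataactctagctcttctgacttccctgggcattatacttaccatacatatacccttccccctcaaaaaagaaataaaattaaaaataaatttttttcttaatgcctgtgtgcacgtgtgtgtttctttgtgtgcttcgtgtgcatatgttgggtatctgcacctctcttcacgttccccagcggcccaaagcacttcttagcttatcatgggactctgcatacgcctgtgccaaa
Tnfrsf18: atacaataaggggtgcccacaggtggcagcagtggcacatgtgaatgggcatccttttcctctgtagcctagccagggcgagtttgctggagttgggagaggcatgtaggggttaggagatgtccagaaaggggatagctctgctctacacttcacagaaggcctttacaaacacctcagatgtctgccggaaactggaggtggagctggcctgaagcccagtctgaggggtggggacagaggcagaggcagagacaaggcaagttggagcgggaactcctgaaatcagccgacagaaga
Tnfrsf9: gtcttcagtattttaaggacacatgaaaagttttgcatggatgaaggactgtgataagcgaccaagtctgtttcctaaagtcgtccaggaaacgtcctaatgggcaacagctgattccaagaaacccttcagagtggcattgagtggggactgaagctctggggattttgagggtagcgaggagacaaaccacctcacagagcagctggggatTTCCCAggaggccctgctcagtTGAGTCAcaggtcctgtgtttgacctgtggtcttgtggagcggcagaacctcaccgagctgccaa

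Icos, the gene of a costimulatory receptor of the CD28 family, lies on chromosome 1. It had 2 and 4 reads in the WT-labeled libraries, and 131 and 52 in KO 1 and KO 2. The KO-labeled libraries differed from each other, at 24.9 and 9.08 normalized CPM, but both were far above 0.601 and 0.991. The log2 fold change of 4.35 (SE 0.86) did not pass (edgeR adjusted p = 0.0624), and 8 of 15 fits passed.

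Nrp1 (chromosome 8), whose product binds semaphorins and vascular endothelial growth factor, was the most abundant of the 10 in the WT-labeled libraries by normalized CPM. It had 199 and 410 reads in WT 1 and WT 2, and 501 and 536 in KO 1 and KO 2. Its normalized CPM was 59.8 and 102 under the WT label, against 95.3 and 93.5 under the KO label. WT 1 was the lowest and the other three lay together. The log2 fold change was 0.23 (SE 0.44, edgeR adjusted p = 0.851), and without WT 1 it was -0.16.

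Il10 (chromosome 1) had 45 and 41 reads under the WT label, and 44 and 107 under the KO label. Its normalized CPM was 11.8 ± 2.38 (SD, n = 2) under the WT label and 13.5 ± 7.28 (SD, n = 2) under the KO label, where KO 1 was the lowest library at 8.37 and KO 2 the highest at 18.7. The log2 fold change was 0.19 (SE 0.61, edgeR adjusted p = 0.915), and its sign followed single libraries, from -0.53 without KO 2 to 0.65 without KO 1.

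**Figure D3:**
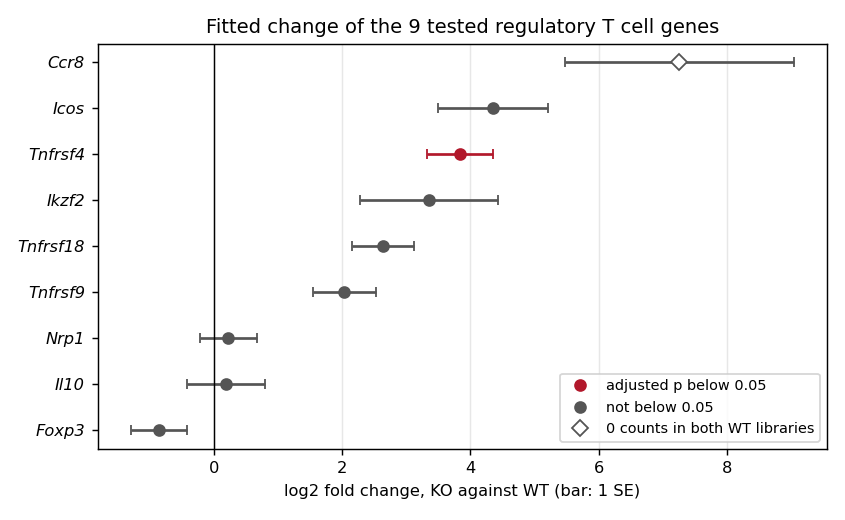
Fitted log2 fold change of the KO label against the WT label for the 9 genes tested, with 1 SE to each side; red marks an adjusted p below 0.05 and an open diamond a gene at 0 reads in both WT-labeled libraries, whose fitted value depends on the prior count. Tnfrsf4 at 3.84 is the one gene past the threshold, and Foxp3 at -0.85 is the one below 0.

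Between genes, levels were compared as normalized CPM per kilobase of annotated exon. Under the WT label Tnfrsf9 stood first at 14.6 ± 7.21 (SD, n = 2), followed by Il10 at 9.04 ± 1.82, Foxp3 at 9.01 ± 0.811, Nrp1 at 8.25 ± 3.02, Tnfrsf18 at 6.71 ± 1.67 and Tnfrsf4 at 4.38 ± 0.0350. The ranges of 1 SD around the first 5 means overlapped, and Tnfrsf4 lay below all of them. Icos at 0.232 ± 0.0803 and Ikzf2 at 0.0792 ± 0.0388 came far below, and Ccr8 and Ikzf4 were at 0. Under the KO label the order was led by Tnfrsf4 at 63.1 ± 21.2, Tnfrsf9 at 59.7 ± 0.940 and Tnfrsf18 at 41.9 ± 10.8 (SD, n = 2). Il10 at 10.3 ± 5.56, Nrp1 at 9.65 ± 0.129, Foxp3 at 5.01 ± 0.0315, Icos at 4.96 ± 3.27 and Ccr8 at 3.55 ± 2.08 followed, and Ikzf2 at 0.849 ± 0.861 and Ikzf4 at 0.273 ± 0.0263 were last. By the same measure Tnfrsf4 was not separated from Tnfrsf9 or Tnfrsf18, nor Il10 from Nrp1, Foxp3, Icos or Ccr8, nor Foxp3, Icos and Ccr8 from each other, nor Ikzf2 from Icos, Ccr8 or Ikzf4. Foxp3 stood far above Icos per kilobase of exon under the WT label, and was not separated from it under the KO label.

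As a share of gene counts the 10 genes together took 0.0157% in WT 1 (exact Clopper-Pearson 95% interval 0.0145% to 0.0170%), 0.0183% in WT 2, 0.0561% in KO 1 and 0.0505% in KO 2. Foxp3 made up 23.1% and 20.1% of these reads under the WT label, and 4.78% and 4.85% under the KO label. Tnfrsf9 made up 33.7% and 34.6% in the KO-labeled libraries, more than any other of the 10 in either.

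Set against the 14 T cell genes, Foxp3, Nrp1, Tnfrsf9, Tnfrsf18 and Il10 had fewer reads per T cell read in both KO-labeled libraries, as did 95.2% of all genes tested, which says nothing particular of these 5. Per 100 reads on that list, Nrp1 had 58.5 and 70.4 in WT 1 and WT 2, and 4.11 and 6.65 in KO 1 and KO 2. Tnfrsf9 had 52.4 and 17.9, against 6.93 and 11.7, and Tnfrsf18 had 11.8 and 5.84, against 3.26 and 3.71. Il10 went from 13.2 and 7.04 to 0.361 and 1.33. For Tnfrsf4 the groups overlapped, with 5.88 and 4.12 under the WT label and 2.83 and 7.58 under the KO label. Icos overlapped as well, at 0.588 and 0.687 against 1.07 and 0.645, and so did Ikzf2, at 0.588 and 0.859 against 0.730 and 0.198. Ccr8 and Ikzf4, at 0 reads in the WT-labeled libraries, reached at most 0.254 and 0.124. These ratios were not tested.

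Some markers of 3 other cell lists passed the test between the same libraries. Of 6 mature dendritic cell genes, 1 of 5 tested passed, and none was at 0 in all libraries. The list took 0.00144% and 0.00211% of gene counts under the WT label against 0.0388% and 0.0357% under the KO label. Ccr7, the gene that passed, had 20 and 36 reads against 1363 and 1574, most of the list's reads under the KO label only. Naive and memory T cells express Ccr7 as well. Of 7 melanoma genes, 1 of 7 tested passed, and the whole list took 873 and 1083 reads against 10380 and 6746. Of 8 fibroblast and endothelial genes, 3 of 5 tested passed. The whole list took 0.00411% and 0.00307% of gene counts against 0.137% and 0.0207%, so that KO 1 stood out. The 3 were the collagen genes Col1a1, Col1a2 and Col3a1, while the endothelial genes Kdr, Pecam1 and Cdh5 had 82 and 49 against 25 and 40 reads, 51 and 63 against 70 and 124, and 1 and 6 against 1 and 1. All of these calls were higher under the KO label, against 0.549% of all genes called higher. The lists of macrophages (10 genes), type 1 conventional dendritic cells (7), plasmacytoid dendritic cells (5), NK and innate lymphoid cells (6), mast cells and basophils (5), B cells (5) and CD4 T cells (3) had no gene past the threshold, but of these lists 10, 6, 2, 4, 1, 1 and 2 genes, in that order, had enough reads to test. The NK and innate lymphoid genes took 0.00632% and 0.00591% of gene counts under the WT label and 0.0220% and 0.0111% under the KO label, with a median log2 fold change of 2.22 over the 4 tested. Klrk1, which activated CD8+ T cells also express, gave most of the KO-labeled reads, at 47 and 114 against 805 and 347. The NK cell genes Ncr1 and Klrb1c had at most 4 reads in any library, and Il7r had a log2 fold change of -0.93. Pax5, Cpa3 and Fcer1a were at 0 in every library. The part of other cells in the values of the 10 genes was not tested.

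Of 24 further Treg genes, 19 were tested and 1 passed, which was higher, against 0.549% of all genes called higher. The number rose when WT 2 or KO 2 was left out, as did that over all genes, and without KO 2 some calls were lower. DESeq2 gave 8, against 416 of 11837 over all genes. The gene that passed was Il2rb, a chain of the interleukin-2 receptor, with 42 and 70 reads under the WT label and 941 and 1208 under the KO label, a log2 fold change of 3.70 (SE 0.47, edgeR adjusted p = 0.0221). Without WT 1 its adjusted p was 0.0991. Il2ra, the gene of CD25, which is high on Tregs, and the inhibitory receptor gene Ctla4, both named after their values were seen, had 0 and 12 against 159 and 128 reads, and 17 and 49 against 425 and 278. Neither passed (edgeR adjusted p = 0.129 and adjusted p = 0.0624). Of the 19 tested, 9 had both KO-labeled libraries above both WT-labeled ones in normalized CPM, against 25.3% of all genes tested, but some of them, such as Nt5e, Tigit and Il1rl1, passed the filter on low counts only through the KO-labeled libraries, so neither this count nor the median supports a shared direction. Both were below for Ebi3 and Tgfb1, as for 22.6% of all genes, with log2 fold changes of -1.29 and -1.12 that did not pass. The 3 genes of the list with the highest mean over all 4 libraries were Capg, Cd83 and Entpd1, each overlapping between the groups. Capg had 2000 ± 967 and 999 ± 728 normalized CPM (SD, n = 2 each), and Cd83 and Entpd1 had log2 fold changes of 1.19 and -0.33. The median of the 19 was 1.82.

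Of 26 factors that act on Foxp3 or with its protein, 25 were tested. Of these 1 passed, which was higher, against 0.549% of all genes called higher. The number rose when WT 1, WT 2 or KO 2 was left out, as did that over all genes. DESeq2 gave 8, against 416 of 11837 over all genes. The gene that passed was Tcf7, the gene of TCF-1 of naive and memory T cells, with 9 and 4 reads against 376 and 156 (log2 fold change 4.75, SE 0.75, edgeR adjusted p = 0.0317). It was 5.53 without WT 1 and 3.89 without KO 1. The 3 most abundant by mean normalized CPM over all 4 libraries were Nr4a1, Nr4a2 and Nr4a3, which respond to antigen receptor signals. Under the WT label alone Nr4a2 and Nr4a3, at 32.0 and 20.0 normalized CPM, were below Mbd2, Runx3 and others, so the choice by this mean favors genes high under the KO label. The 3 were fitted with log2 fold changes of 1.35, 2.75 and 2.85. Both KO-labeled libraries were above both WT-labeled ones for each of them, and none passed (edgeR adjusted p = 0.371, adjusted p = 0.0981 and adjusted p = 0.229). The KO-labeled libraries differed widely for Nr4a3, at 260 and 30.4 normalized CPM. The median of the 25 was 0.78.

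Of 17 ligands, partner chains and adaptors of the 10 genes, 15 were tested. Of these 1 passed, which was higher, against 0.549% of all genes called higher. The number rose when WT 1 or KO 2 was left out, as did that over all genes, and without KO 2 a call was lower. DESeq2 gave 2, against 416 of 11837 over all genes. The gene that passed was Ccl1, a ligand of CCR8, with 1 and 7 reads under the WT label and 313 and 194 under the KO label, a log2 fold change of 5.43 (SE 0.77, edgeR adjusted p = 0.0269). Leaving out WT 2 gave 7.10, and leaving out WT 1 gave 4.66. Ccl8, the other CCR8 ligand of the list and its most abundant gene by the mean over all 4 libraries, was lower in both KO-labeled libraries, at 806 and 1070 normalized CPM against 132 and 636, and did not pass (log2 fold change -1.29, edgeR adjusted p = 0.449). Tnfsf4, the ligand of OX40, had 4 and 0 reads against 61 and 45 (edgeR adjusted p = 0.178), and Tnfsf18, the ligand of GITR, 1 and 3 against 11 and 6, too few to test. The ligands of 4-1BB and ICOS, Tnfsf9 and Icosl, overlapped between groups, with log2 fold changes of 0.88 and -0.02. So did the Nrp1 ligands Sema4a and Vegfa, at -0.19 and -0.11, and Sema3a was at 0 reads in every library. Stat3 and the interleukin-10 receptor chain gene Il10rb, the next most abundant by that mean, had log2 fold changes of 0.54 and -0.78 and did not pass. The median of the 15 was -0.11.

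The 4 genes whose profile over the 4 libraries was nearest to that of Foxp3, among the other 11836 tested, were Dcaf5, Nenf, Ypel3 and Chchd5. Nearness was the root mean square difference of log2(normalized CPM + 1) after centering each gene on its mean, and ran from 0.0173 for Dcaf5 to 0.0282 for Chchd5. Dcaf5 had 34.0 and 29.5 normalized CPM under the WT label and 17.7 and 17.3 under the KO label. None of these 4 is on the lists of Treg or T cell genes used here, and 105 genes were nearer than 0.1, so that 4 libraries do not single out a profile.

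Each library was left out in turn to see how far the values of the 9 tested genes rest on it. In each such fit 1 group is a single library, assumed to vary like the 2 libraries of the other group, so that these p-values are not independent support. Foxp3 kept a value from -0.98 to -0.81, and Tnfrsf4 passed each time. Ikzf2 ranged from 1.55 without KO 1 to 4.10 without KO 2, the latter past the threshold (edgeR adjusted p = 0.0169). Tnfrsf9 ranged from 1.55 without WT 2 to 2.60 without WT 1, and Icos from 3.44 without KO 1 to 4.86 without KO 2. Without KO 2, 5 of the 9 passed, where over all genes 1248 passed.

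**Figure D4:**
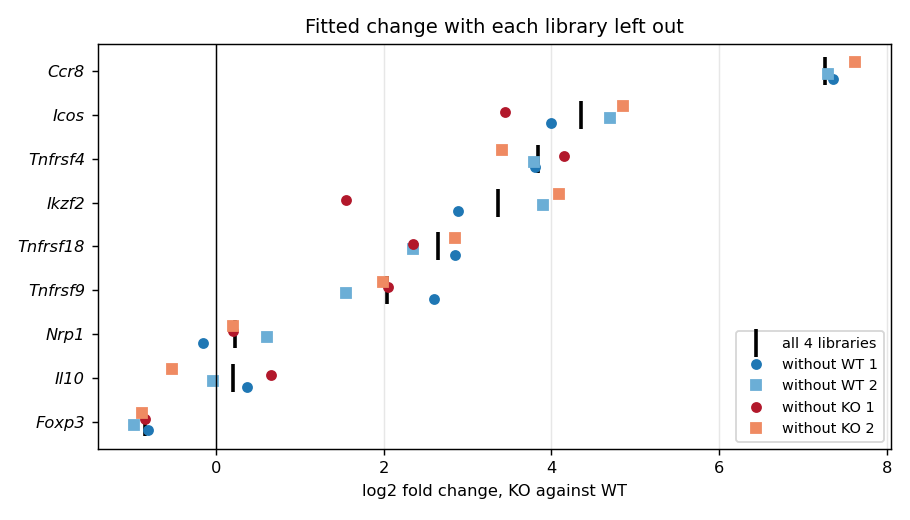
Fitted log2 fold change of each gene with all 4 libraries (vertical mark) and with each library left out in turn. Without KO 1 Ccr8 was not tested and has no point; Foxp3 stays below 0 and Tnfrsf4 above 3 throughout, while Nrp1 and Il10 fall on both sides of 0.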

How the data were processed

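Values are the raw counts of reads per gene symbol that the authors deposited, 1 table for each library. Per the submitters' processing notes reads were aligned to mm10 with HISAT2 2.1.0 and counted with HTSeq 0.11.0. Annotation and strand setting are not given in the sources used here. Lines for unassigned reads were dropped. Reads on genes made up 20.5% to 28.8% of all reads, and reads that did not align 30.3% to 44.2%.

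The fit used edgeR 4.0.16 in R 4.3.3. The filterByExpr function kept genes (at least 10 scaled counts in 2 libraries, 15 in total), which were scaled by TMM and tested two-sided by the quasi-likelihood F test with group as the only term and the default prior count, with Benjamini-Hochberg adjustment over 11837 genes. The SE is the size of the log2 fold change divided by the square root of F. For a gene at 0 in both WT-labeled libraries, the fold is a bound against 3 counts in each. Intervals and bounds cover counting error only. Positions, exon lengths and overlaps came from GENCODE M21 (GRCm38/mm10), which matched 96.2% of symbols. DESeq2 1.42.0, other scalings, filters and tests, a replicate block, thinned counts and each library left out were alternatives. The test was checked on simulated data.

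The 10 genes, the lists and the motifs were chosen with earlier results of these data known. Marker genes were named where at 0 in every library or defining the sort or label. Other genes named beside the 10 were those of 3 fixed pathway lists past the threshold, the 3 most abundant of each, each ligand of a gene of the 10, genes sharing exons with Foxp3 and the 5 nearest to its profile, of which 1 is not reported here. The neighbors Cacna1f, Sdf4 and Park7, the overlap of Gm16008, the genes Il2ra, Ctla4, Ebi3 and Tgfb1, those set beside the Nr4a genes, Nt5e, Tigit and Il1rl1, and single macrophage, dendritic cell, NK cell, collagen and endothelial genes were added after their values were seen. Figures were drawn with matplotlib 3.10.9.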

Additional observations from a re-analysis of the deposited data

How the results depend on the processing

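Of the 10 genes, 9 were tested and 1 passed in the main fit, and over all genes 68 of 11837 passed. Over the same 9 and 11837 tested, the 2 counts were 3 and 134 with library totals and 3 and 181 at a threshold of 0.1. They were 5 and 416 in DESeq2 (350 higher and 66 lower), and 6 and 556 in the likelihood ratio test. With every gene with a count, 6 of 10 and 583 of 21241 passed. With thinned counts 2 of the 9 tested and 87 of 11687 genes in all passed. Leaving out single libraries gave 1 to 5 of the 10 and 113 to 1248 genes in all. RLE and upper-quartile factors gave 1 of the 9 tested, and 65 and 60 of 11837 genes in all. A filter of CPM 1 in 2 libraries gave 1 of the 10, and 61 of 13462 genes. Tnfrsf4 was past the threshold in every one of these settings. The cause of these shifts was not tested. Library totals moved the median log2 fold change of all genes from 0.05 to 0.387, every gene with a count to 0.239, and leaving out WT 2 to 0.118. Signs reversed for Nrp1, from -0.16 to 0.61, and Il10, from -0.53 to 0.65, when libraries were left out. With the replicate block, 3 of the 9 tested and 215 of 11837 genes passed. Same-numbered libraries deviated in opposite ways (correlation -0.189 across 11837 genes, which are not independent). A crossed replicate block, added after this was seen, gave 5 and 647. Numbers alone do not pair the libraries. A count of 0 allows up to 3 reads, or 0.524 to 0.902 normalized CPM.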

Other observations

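These genes were chosen after their values were seen. Il1rl1, the gene of the interleukin-33 receptor, which a subset of tissue Tregs and type 2 innate lymphoid cells carry, had 0 reads in both WT-labeled libraries and 21 and 25 in KO 1 and KO 2, at least 5.08-fold higher against a floor of 3 reads per library (edgeR adjusted p = 0.127). Gata3, a factor of the same cells and of T cells, had 0 and 0 against 45 and 57 reads, at least 11.3-fold higher (edgeR adjusted p = 0.0535). Areg, a growth factor gene of tissue repair, had 2 and 17 against 117 and 78 (edgeR adjusted p = 0.194). None of the 3 passed the threshold.

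Zbtb7b encodes ThPOK, whose regulatory sequence drives ThPOK-cre. It had 360 and 218 reads in the WT-labeled libraries and 128 and 141 in the KO-labeled ones, a log2 fold change of -1.73 (SE 0.49, edgeR adjusted p = 0.177), while Cd4 had 3 to 35 reads in any library.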
